A study of Homo sapiens with 6 samples.

Results

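The 39 genes described here repair DNA or signal its damage, and were taken by symbol from a table of 58302 Ensembl identifiers. They comprise genes of the Fanconi pathway, homologous recombination, mismatch repair, end joining and base excision repair, together with the checkpoint kinases. The rule names genes by function and uses no measured value, although the list was drawn up with earlier results of these data known. All 39 symbols matched 1 identifier each, and all 39 passed the filter on low counts, among 14018 genes tested. The libraries came from HL-60, a suspension line established from human myeloid leukaemia. Cells that carried a short hairpin RNA against OSGEP gave 3 knockdown libraries, and cells with a control hairpin, which the labels call wild type, gave 3 control libraries. OSGEP is the catalytic subunit of the complex that places t6A next to the anticodon of tRNAs reading codons that begin with A. The labels name neither the hairpin sequence nor the time after transduction, and do not say whether libraries of a group were separate cultures, so p-values measure the spread between these libraries only.

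Cells meet DNA damage with repair routes suited to each lesion. Crosslinks between strands are handled by the Fanconi pathway, in which a core complex ubiquitinates the clamp made of FANCD2 and FANCI, and breaks at replication forks are repaired by homologous recombination with BRCA1, BRCA2 and the helicases that process joint molecules. The kinases ATM and ATR sense breaks and stalled forks and act through CHEK2 and CHEK1, while end joining seals breaks without a template and is active through the whole cell cycle. Many recombination and Fanconi genes are transcribed most in cells that replicate DNA.

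Total counts ran from 8326982 to 10157091 in the knockdown libraries and from 8414775 to 10025573 in the control libraries. OSGEP itself was at 21.2, 23.1 and 20.9 CPM (the read count of a gene scaled to TMM-normalised library size) in replicates 1, 2 and 3 of the knockdown, against 49.1, 54.4 and 76.9 CPM in those of the control, and fell by 1.47 on the log2 scale (edgeR adjusted p = 0.000228). On the second principal component, with 20.4% of the variance, knockdown library 1 lay at 72.8, away from the other 5 libraries, which lay between -39.9 and 9.99. Counts of called genes are therefore also given without it. Of 12 myeloid markers, 4 fell (MPO, ELANE, AZU1 and PRTN3) and 0 rose, and the summed level of the list was 1460 to 1520 CPM with knockdown and 3120 to 3270 CPM in control cells. The 10 lymphoid markers summed to 19.0 to 30.0 CPM with knockdown and 6.24 to 11.3 CPM in control cells, with 1 of 2 tested called higher (PAX5). The 10 epithelial and mesenchymal markers summed to 38.5 to 62.4 CPM with knockdown and 26.9 to 33.1 CPM in control cells, with 1 of 6 tested called higher (CDH1), and the 10 erythroid markers to 9.18 to 19.0 CPM with knockdown and 20.3 to 24.3 CPM in control cells, 0 of 2 tested called, with GYPB and HBG1 at 0 in all 6 libraries. The part of these shifts in the results below was not tested.

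Repair and checkpoint transcripts were lower in the knockdown where they changed. Of the 39 genes, 6 fell and 0 rose at an edgeR adjusted p under 0.05, where 5.56% of all genes tested were called lower and 5.19% higher. The 6 were BLM, FANCI, FANCD2, BRIP1, MRE11 and PARP1. With DESeq2 or limma-voom 7 fell and 0 rose, where 920 and 866 of 14018 genes were called lower and 954 and 687 higher. The log2 fold change was below 0 for 33 of the 39, beside 49.7% of all genes tested, and above 0 for 6. The median was -0.41 over the list and 0.0055 over all genes tested. Every knockdown library lay below every control library for 15 of the 39, beside 15.6% of all genes tested, and above for 0, beside 13.3%. At an unadjusted p under 0.05, 16 were lower and 0 higher, beside 11.9% and 11% of all genes. The list had a higher median level (31.6 CPM) than all genes tested (18.2 CPM). Of the 10336 genes at or above the lowest mean CPM in the list, edgeR called 747 lower and 664 higher. Among those 10336, the groups did not overlap for 1867 lower and 1524 higher genes. At an unadjusted p under 0.05, 1556 of them were lower and 1344 higher. In bulk RNA, fewer cells that express a gene and less of its RNA per cell cannot be told apart.

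Left out in turn, the 6 libraries changed the count of called genes. It was 7 without knockdown library 1, 5 without knockdown library 2, 3 without knockdown library 3, 4 without control library 1, 3 without control library 2 and 2 without control library 3. In the same order, 898, 663, 458, 535, 423 and 425 of all genes tested (14839 to 15053 genes) were called lower. With all 6 libraries the count was 780 of 14018. The list's median stood between -0.46 and -0.31 in the fits with 1 library left out. BLM kept its call in all 6, and PARP1 in all but the fit without knockdown library 3. Knockdown library 3 was the lowest of the 6 for 18 of the 39 genes, against 7 and 9 for knockdown libraries 1 and 2 and 0, 1 and 4 for control libraries 1, 2 and 3.

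**Figure D1:**
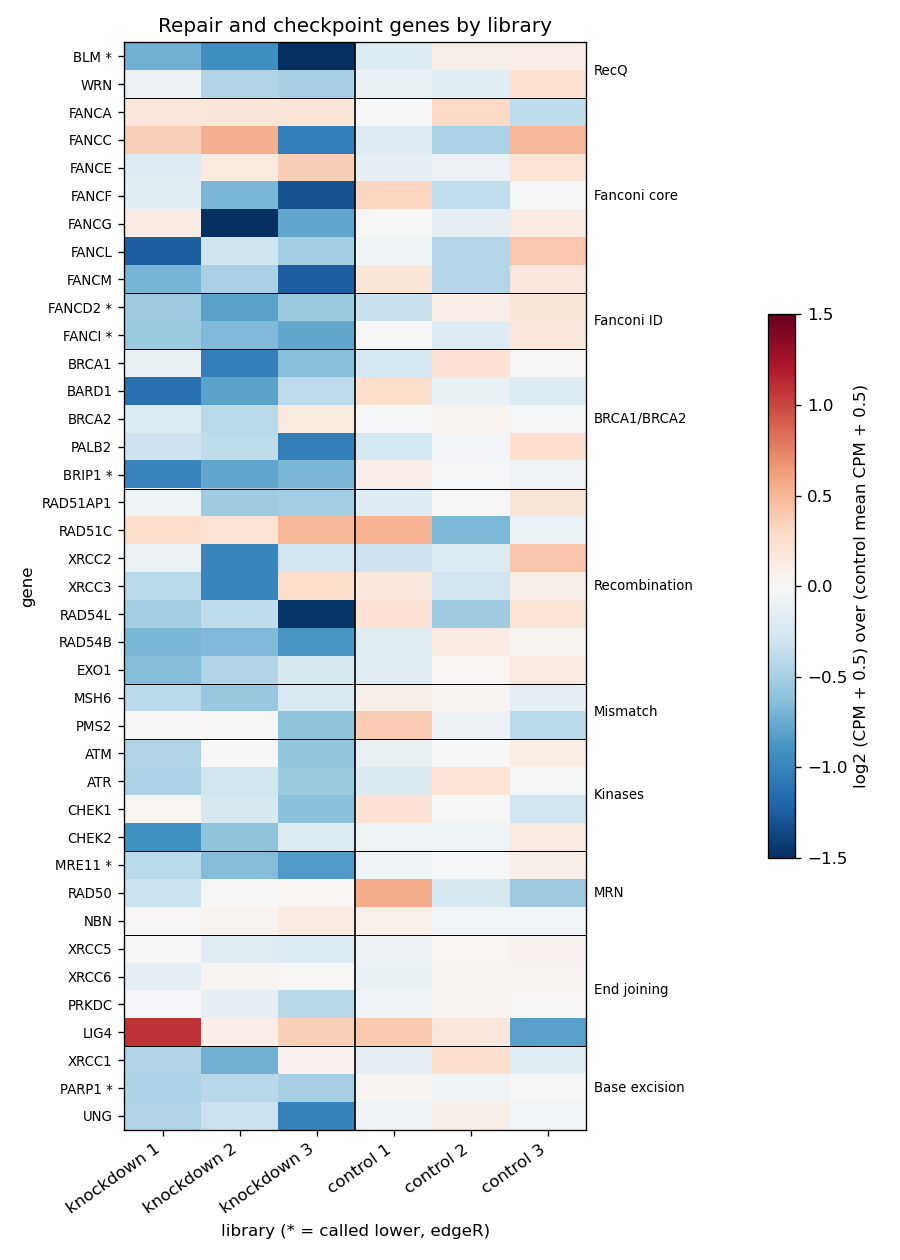
Heat map of the 39 genes (rows, grouped by role) in the 3 knockdown and 3 control libraries (columns). Colour gives log2 of CPM plus 0.5 over the control mean CPM plus 0.5, blue for lower and red for higher, and the scale stops at 1.5 either way. BLM, FANCD2, FANCI, BRIP1, MRE11 and PARP1, marked with a star, are blue in all 3 knockdown libraries, while the end-joining genes XRCC5 and XRCC6 stay near white.

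Promoter sequences of the genes that fell are shown first, since replication-linked genes often share short elements near the start site. RefSeq windows on GRCh38.p14, from 250 bases before to 50 after the start site, were matched for 33 of the 39 genes, and those of 5 of the 6 that fell are printed with that of XRCC6, which was not called. FANCI had no window. Capitals mark the motifs searched on both strands: the E2F-type element (TTTGGCGC, TTTGCCGC, TTTCGCGC or TTTCCCGC), the CHR-type element (TTTGAA or TTCGAA), the CCAAT box (CCAAT) and the GC box (GGGCGG). The windows lie at chr15:90717096-90717395 on the plus strand for BLM, chr17:61863479-61863778 on the minus strand for BRIP1, chr3:10026187-10026486 on the plus strand for FANCD2, chr11:94493795-94494094 on the minus strand for MRE11, chr1:226408044-226408343 on the minus strand for PARP1 and chr22:41621045-41621344 on the plus strand for XRCC6.
BLM: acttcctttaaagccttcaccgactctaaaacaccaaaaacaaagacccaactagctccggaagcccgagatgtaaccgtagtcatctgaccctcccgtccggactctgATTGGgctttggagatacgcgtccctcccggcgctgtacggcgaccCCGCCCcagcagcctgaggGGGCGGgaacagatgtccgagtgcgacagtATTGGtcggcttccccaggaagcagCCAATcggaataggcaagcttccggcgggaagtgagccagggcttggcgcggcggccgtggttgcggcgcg
BRIP1: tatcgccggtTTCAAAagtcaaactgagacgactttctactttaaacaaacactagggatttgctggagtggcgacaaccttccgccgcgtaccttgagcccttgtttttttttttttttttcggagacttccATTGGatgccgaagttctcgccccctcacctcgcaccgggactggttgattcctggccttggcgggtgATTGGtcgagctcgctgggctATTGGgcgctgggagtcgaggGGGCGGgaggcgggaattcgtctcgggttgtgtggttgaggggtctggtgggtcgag
FANCD2: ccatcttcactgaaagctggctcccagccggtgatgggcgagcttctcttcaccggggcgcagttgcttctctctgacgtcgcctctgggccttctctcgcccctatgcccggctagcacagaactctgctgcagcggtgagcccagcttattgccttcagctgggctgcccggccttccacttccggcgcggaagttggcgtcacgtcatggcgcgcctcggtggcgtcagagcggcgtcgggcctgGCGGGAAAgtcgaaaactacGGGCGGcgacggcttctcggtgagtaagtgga
MRE11: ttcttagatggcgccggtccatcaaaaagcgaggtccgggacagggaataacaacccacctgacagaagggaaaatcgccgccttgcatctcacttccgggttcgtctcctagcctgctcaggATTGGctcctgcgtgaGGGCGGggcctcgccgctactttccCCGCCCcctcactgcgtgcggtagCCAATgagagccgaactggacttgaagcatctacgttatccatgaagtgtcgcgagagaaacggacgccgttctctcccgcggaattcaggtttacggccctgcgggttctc
PARP1: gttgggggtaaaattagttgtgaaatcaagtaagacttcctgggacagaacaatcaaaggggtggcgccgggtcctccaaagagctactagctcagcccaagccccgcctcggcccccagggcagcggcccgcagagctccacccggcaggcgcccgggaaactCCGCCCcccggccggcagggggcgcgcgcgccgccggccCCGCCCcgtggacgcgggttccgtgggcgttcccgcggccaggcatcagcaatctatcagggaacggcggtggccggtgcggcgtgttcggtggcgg
XRCC6: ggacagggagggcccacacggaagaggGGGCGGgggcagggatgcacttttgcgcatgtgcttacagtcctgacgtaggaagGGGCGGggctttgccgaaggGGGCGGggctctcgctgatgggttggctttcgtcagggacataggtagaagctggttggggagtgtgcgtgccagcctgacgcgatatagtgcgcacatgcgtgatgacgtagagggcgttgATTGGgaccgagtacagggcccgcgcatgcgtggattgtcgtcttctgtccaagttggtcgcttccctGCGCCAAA

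Of the elements searched, the GC box was the one found in all 5 windows of genes that fell. An E2F-type element was in a window of 9 of the 33 genes (27.3%), against 7.0% of the 9556 tested genes with a window and 17 of 34 replication genes. Among the 5 fallen genes with a window only FANCD2 held it, across the start site as GCGGGAAA, the reverse complement of a listed form. The other 8 with it (EXO1, FANCA, FANCC, MSH6, PMS2, UNG, XRCC2 and XRCC6) were not called. BLM and BRIP1 each held 3 CCAAT boxes and MRE11 held 2, and this box was in 60.6% of the 33 genes and 43.8% of tested genes. The GC box was in 81.8% of the 33 genes, against 76.2% of tested genes, and the CHR-type element was in 15.2% against 15.7%. These matches describe the letters of the windows and show no binding.

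BLM, the RecQ helicase lost in Bloom syndrome, which unwinds joint molecules between sister chromatids, had the largest fall of the list. Its level was 51.3, 44.7 and 28.5 CPM in replicates 1, 2 and 3 of the knockdown, against 73.4, 90.3 and 90.5 CPM in those of the control. The groups did not overlap, and knockdown library 3 was the lowest. The mean was 41.5 ± 11.8 CPM with knockdown and 84.7 ± 9.83 CPM in control cells (SD, n = 3 each), 49.0% of the control level in the fit (log2 fold change of -1.03 with SE 0.20, adjusted p = 0.00314 by edgeR). BLM (ENSG00000197299) lies on chromosome 15 at 90717327 to 90816165 on the plus strand of GRCh38. WRN, the helicase lost in Werner syndrome, was not called, at 26.4 ± 4.29 CPM with knockdown and 33.4 ± 5.18 CPM in control cells (SD, n = 3 each; -0.34, SE 0.23). Whether BLM and WRN differ in their fold change was not tested.

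Both genes of the Fanconi clamp fell. FANCI stood at 65.2, 60.3 and 55.7 CPM in replicates 1, 2 and 3 of the knockdown and at 95.3, 84.0 and 108 CPM in those of the control. The means were 60.4 ± 4.74 CPM with knockdown and 95.8 ± 12.1 CPM in control cells (SD, n = 3 each; log2 fold change of -0.66 with SE 0.15, adjusted p = 0.00993 by edgeR). FANCD2, its partner, which is ubiquitinated at crosslinks, stood at 61.7, 51.6 and 61.3 CPM in replicates 1, 2 and 3 of the knockdown and at 71.7, 96.7 and 102 CPM in those of the control. Its means were 58.2 ± 5.72 CPM with knockdown and 90.3 ± 16.3 CPM in control cells (-0.63, SE 0.17, edgeR adjusted p = 0.0237). In both genes the groups did not overlap, and the fitted level was 63.1% of the control for FANCI and 64.5% for FANCD2. Among the fits that left out 1 library, the FANCI call was lost without knockdown library 3 (-0.60) or control library 3 (-0.57), and the FANCD2 call without knockdown library 2 (-0.54), knockdown library 3 (-0.66), control library 2 (-0.585) or control library 3 (-0.54). FANCI (ENSG00000140525) lies on chromosome 15 at 89243949 to 89317261 and FANCD2 (ENSG00000144554) on chromosome 3 at 10026414 to 10101930, both on the plus strand of GRCh38. FANCI shares 458 exonic bases with POLG on the opposite strand, and the strand setting of the counting is not given in the sources used here.

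Of the core complex that ubiquitinates this clamp and its anchor, 0 of 7 genes were called by edgeR in either direction. Their median log2 fold change was -0.63, close to the -0.65 of the clamp genes. They were measured less precisely, with a median SE of 0.37 at a median of 11.8 CPM, against 0.16 at 76.2 CPM for the clamp. Whether the core and the clamp differ in their fold change was not tested. At an unadjusted p under 0.05, 1 was lower (FANCM), and 0 of the 7 were called by DESeq2 or limma-voom. FANCE, which bridges the core complex to FANCD2 and has the highest mean CPM of these genes, stood at 24.7, 31.3 and 36.8 CPM in replicates 1, 2 and 3 of the knockdown and at 25.7, 26.6 and 32.7 CPM in those of the control (log2 fold change of 0.13 with SE 0.23, adjusted p = 0.822 by edgeR), and the groups overlapped. Without knockdown library 3 the sign of FANCE turned (-0.0011). FANCM, the DNA translocase that anchors the complex, had 16.1 ± 4.21 CPM with knockdown and 27.9 ± 6.42 CPM in control cells (SD, n = 3 each; -0.79, SE 0.29, edgeR adjusted p = 0.0979). FANCL, the ubiquitin ligase subunit, and FANCF and FANCG, which hold the complex together, had -0.66, -0.68 and -0.63 with SEs of 0.41, 0.43 and 0.37, and FANCA and FANCC had 0.18 and 0.12. FANCG was uneven, at 30.2, 7.49 and 15.9 CPM in replicates 1, 2 and 3 of the knockdown and 25.2 to 30.0 CPM in the control libraries, and it was called lower without knockdown library 1 (-1.25). The sign of FANCC reversed without knockdown library 1 (-0.03), knockdown library 2 (-0.16) or control library 2 (-0.09).

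**Figure D2:**
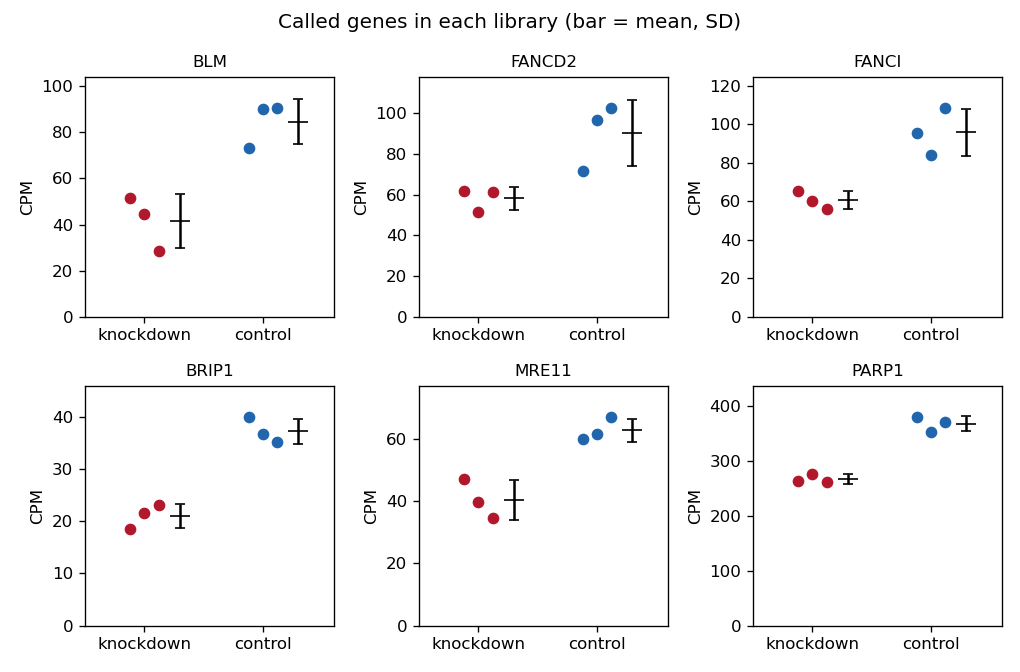
CPM of the 6 called genes in each library, with knockdown libraries in red on the left and control libraries in blue on the right of each panel. Each point is 1 library and the black bar gives the mean and SD of 3. In each panel the highest knockdown point lies below the lowest control point.

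Among the BRCA1 and BRCA2 complexes, BRIP1 fell and 4 genes were not called. BRIP1, the helicase that binds BRCA1, stood at 18.5, 21.5 and 23.0 CPM in replicates 1, 2 and 3 of the knockdown and at 39.9, 36.7 and 35.2 CPM in those of the control. The means were 21.0 ± 2.32 CPM with knockdown and 37.3 ± 2.39 CPM in control cells (SD, n = 3 each), 56.4% of the control in the fit (log2 fold change of -0.83 with SE 0.22, adjusted p = 0.0226 by edgeR). Among the fits that left out 1 library, the call was lost without knockdown library 1 (-0.745) or control library 1 (-0.78), 2 (-0.84) or 3 (-0.87). BRIP1 (ENSG00000136492) lies on the minus strand of chromosome 17 (GRCh38), from 61681266 to 61863521.

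BARD1, the obligate partner of BRCA1 in its ubiquitin ligase, came close to the threshold, at 17.5, 21.8 and 29.2 CPM in replicates 1, 2 and 3 of the knockdown and 46.6, 35.8 and 33.4 CPM in those of the control (log2 fold change of -0.76 with SE 0.25, adjusted p = 0.0612 by edgeR). Its groups did not overlap, and it was called by DESeq2 (-0.74), by limma-voom (-0.80) and without knockdown library 3 (-0.96). BRCA1 had 83.9, 44.3 and 57.9 CPM in replicates 1, 2 and 3 of the knockdown and 75.1, 105 and 91.6 CPM in those of the control (-0.55, SE 0.21, edgeR adjusted p = 0.117). The groups of BRCA1 overlapped through knockdown library 1, and without that library it was called lower (-0.83). PALB2, which links BRCA1 to BRCA2, had -0.54 (SE 0.23), with groups that did not overlap, and BRCA2, which loads the strand-exchange recombinase, had -0.14 (SE 0.18) with 55.7 ± 11.2 CPM with knockdown and 61.3 ± 1.88 CPM in control cells (SD, n = 3 each).

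None of the 7 genes that assist strand exchange or resect ends were called by edgeR, DESeq2 or limma-voom, with 2 lower at an unadjusted p under 0.05 (EXO1 and RAD54B). RAD51AP1, which stimulates strand invasion and has the highest mean CPM of the 7, stood at 66.8, 48.5 and 49.1 CPM in replicates 1, 2 and 3 of the knockdown and 61.4, 70.3 and 80.0 CPM in those of the control (log2 fold change of -0.36 with SE 0.18, adjusted p = 0.244 by edgeR). The groups overlapped through knockdown library 1. EXO1, the exonuclease that extends resected ends, was lower in all 3 knockdown libraries than in any control library, at 38.3 ± 5.48 CPM with knockdown and 52.2 ± 5.59 CPM in control cells (SD, n = 3 each; -0.44, SE 0.19). The translocases RAD54B and RAD54L had -0.77 and -0.76, each with few reads, and the recombinase paralogs XRCC2, XRCC3 and RAD51C had -0.41, -0.31 and 0.33. RAD54B shares 3139 of its exonic bases with FSBP on the same strand, and XRCC3 shares 5756 with KLC1 on the opposite strand, so their counts are uncertain.

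The 4 checkpoint kinases were lower in mean and not called by edgeR, DESeq2 or limma-voom. ATM, the kinase that responds to breaks, stood at 136, 187 and 124 CPM in replicates 1, 2 and 3 of the knockdown and 173, 186 and 201 CPM in those of the control (log2 fold change of -0.33 with SE 0.15, adjusted p = 0.204 by edgeR). Knockdown library 2 lay among the controls, and without it ATM was called lower (-0.51). ATR, the kinase of stalled forks, had -0.43 (SE 0.18) at 46.2 ± 4.84 CPM with knockdown and 62.3 ± 9.29 CPM in control cells (SD, n = 3 each), with groups that did not overlap. Their downstream kinases CHEK1 and CHEK2 had -0.26 (SE 0.19) and -0.56 (SE 0.27), with overlapping groups for CHEK1 and not for CHEK2. At an unadjusted p under 0.05, 2 of the 4 were lower, ATM and ATR.

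Of the MRN complex, which binds broken ends and activates ATM, MRE11 fell and NBN did not pass the test. MRE11, the nuclease, stood at 47.3, 39.8 and 34.5 CPM in replicates 1, 2 and 3 of the knockdown and 59.9, 61.5 and 67.0 CPM in those of the control. Its means were 40.5 ± 6.41 CPM with knockdown and 62.8 ± 3.71 CPM in control cells (SD, n = 3 each; log2 fold change of -0.63 with SE 0.18, adjusted p = 0.0320 by edgeR). Among the fits that left out 1 library, the call was lost without knockdown library 2 (-0.60) or 3 (-0.51) or control library 1 (-0.67), 2 (-0.65) or 3 (-0.59), and the value with library size alone, also not called, was -0.56. MRE11 (ENSG00000020922) lies on the minus strand of chromosome 11 (GRCh38), from 94415578 to 94493908. NBN, the adaptor that recruits ATM, stood at 74.4, 75.8 and 80.8 CPM in replicates 1, 2 and 3 of the knockdown and 77.2, 71.4 and 71.1 CPM in those of the control (0.07, SE 0.14, edgeR adjusted p = 0.843). RAD50, the tethering subunit, had only 75 to 107 counts in a knockdown library and 54 to 143 in a control library, and 7784 of its exonic bases are shared with a same-strand gene model that has 0 counts, so its fold change of -0.10 (SE 0.40) is uncertain. Its sign turned without knockdown library 1 (0.0090) or control library 1 (0.305). The difference between MRE11 and NBN was not tested.

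Of the 4 end-joining genes, none were called by edgeR, DESeq2 or limma-voom, with 0 at an unadjusted p under 0.05. Per kilobase of annotated exon, XRCC5, the larger subunit of the Ku ring that caps broken ends, had 88.7 CPM per kb with knockdown and 97.2 CPM per kb in the control, and its partner XRCC6 had 43.5 and 44.2 CPM per kb. PARP1, which is outside end joining, had 37.3 CPM per kb with knockdown and 51.3 CPM per kb in the control, there above XRCC6. XRCC5 stood at 524, 468 and 462 CPM in replicates 1, 2 and 3 of the knockdown and 500, 540 and 553 CPM in those of the control (log2 fold change of -0.13 with SE 0.10, adjusted p = 0.490 by edgeR), and the groups overlapped. XRCC6 had -0.02 (SE 0.12), with a sign that flips with library size alone (0.05) and without knockdown library 1 (0.03) or control library 3 (0.0026). Its 5 annotated processed pseudogenes, of which XRCC6P2 has 1199 counts over the 6 libraries, may share its reads. PRKDC, the kinase that Ku recruits, had -0.18 (SE 0.11), and LIG4, the ligase, had 0.59 (SE 0.38) at 17.0 ± 6.57 CPM with knockdown and 11.2 ± 4.52 CPM in control cells (SD, n = 3 each).

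PARP1, the sensor of strand breaks that makes poly(ADP-ribose), had the smallest fall and the second smallest adjusted p of the 6. It stood at 264, 277 and 261 CPM in replicates 1, 2 and 3 of the knockdown and 379, 354 and 371 CPM in those of the control, with a gap between the groups several times the spread within them. The means were 267 ± 8.44 CPM with knockdown and 368 ± 13.2 CPM in control cells (SD, n = 3 each), 72.6% of the control in the fit (log2 fold change of -0.46 with SE 0.10, adjusted p = 0.00680 by edgeR). Without knockdown library 3 the call was lost (-0.43, edgeR adjusted p = 0.0573). PARP1 (ENSG00000143799) lies on the minus strand of chromosome 1 (GRCh38), from 226360691 to 226408079. UNG, which removes uracil from DNA, had 34.2 ± 8.02 CPM with knockdown and 50.7 ± 2.75 CPM in control cells (SD, n = 3 each; -0.57, SE 0.21, edgeR adjusted p = 0.0997), and its groups did not overlap. XRCC1, the scaffold of base excision repair, had -0.34 (SE 0.25).

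Neither mismatch repair gene was called. MSH6, a subunit of the mismatch sensor, stood at 56.1, 50.4 and 63.9 CPM in replicates 1, 2 and 3 of the knockdown and 79.2, 76.8 and 68.2 CPM in those of the control (log2 fold change of -0.40 with SE 0.16, adjusted p = 0.141 by edgeR). Its groups did not overlap, and knockdown library 3 and control library 3 were closest. PMS2, a subunit of the mismatch endonuclease, had -0.19 (SE 0.53) with 30 to 62 counts in a knockdown library and 34 to 73 in a control library, and it has many near-identical pseudogenes. Its sign reversed without knockdown library 3 (0.01) or control library 1 (0.06).

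**Figure D3:**
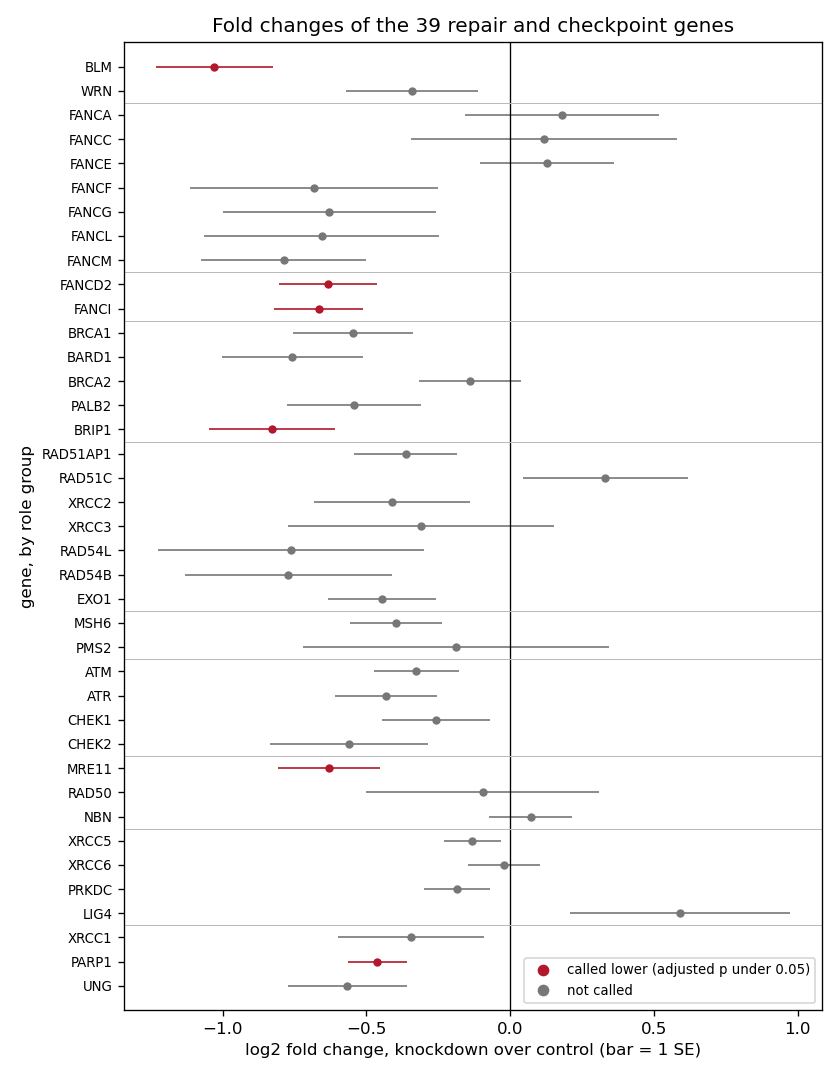
Log2 fold change of each of the 39 genes, knockdown over control, with a bar of 1 SE (edgeR, 3 libraries a group), ordered by role. Red points are the 6 genes called lower, from -1.03 for BLM to -0.46 for PARP1, and 6 grey points lie above 0.

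Precision followed the counts. The 10 genes under a mean of 15 CPM had SEs from 0.34 to 0.53 and none were called by edgeR, with 1 lower at an unadjusted p under 0.05. The 29 others had SEs from 0.10 to 0.37. In FANCC, FANCF, FANCL, XRCC3, RAD54L, RAD50 and PMS2 the SE was close to or above the size of the change in PARP1, so a change of that size was not detectable there at this depth. Exons of FANCA, RAD54L, MSH6 and MRE11 overlap those of ZNF276, LRRC41, FBXO11 and ANKRD49 on the opposite strand, and the pseudogenes FANCD2P2, MRE11P1, PARP1P1 and RAD51AP1P1 held 169, 111, 352 and 330 counts over the 6 libraries, so some reads of these genes may be assigned to their neighbours or copies.

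Of 122 further repair genes, chosen by function, 117 were tested, 10 fell and 1 rose, beside 5.56% called lower and 5.19% called higher of all genes tested, with a median log2 fold change of -0.24. RMI2, a subunit of the complex in which BLM works, fell to 42.6 ± 5.97 CPM in the knockdown, against 101.5 ± 7.77 CPM in control cells (SD, n = 3 each; -1.25, SE 0.16, edgeR adjusted p = 7.25e-05). It stood at 47.5, 36.0 and 44.5 CPM in replicates 1, 2 and 3 of the knockdown and 99.95, 110.0 and 94.6 CPM in those of the control, without overlap. SMUG1, a uracil glycosylase like UNG, fell by 1.27 (SE 0.30), and PRIMPOL, which reprimes stalled forks, fell by 1.12 (SE 0.27). DDB1, the adaptor of the ligase that recognises ultraviolet lesions, was the gene that rose, at 197 ± 21.9 CPM with knockdown and 130 ± 7.63 CPM in control cells (0.59, SE 0.13, edgeR adjusted p = 0.00576). By route, 3 of 20 recombination genes, 2 of 21 checkpoint mediators, 1 of 11 Fanconi genes, 1 of 5 mismatch genes, 1 of 14 translesion genes, 1 of 18 base excision genes and 1 of 18 nucleotide excision genes fell. By edgeR, 0 of 7 end-joining and 0 of 3 direct reversal genes fell, and with an unadjusted p under 0.05 also 0 of each. Nucleotide excision genes had a median of 0.0033. SMUG1 lost its call without control library 1 (-1.17), PRIMPOL without control library 2 (-1.08) or 3 (-1.12) and DDB1 without control library 3 (0.55). Of these further repair genes, 13 fell and 2 rose without knockdown library 1. The count of 10 was 6 without control library 1 and 5 without control library 3. In these 3 fits 898, 535 and 425 of all genes tested were called lower, against 780 with all 6 libraries.

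Replication genes were set beside the list because many of its members act at forks. Of 41, 18 fell and 0 rose, beside 5.56% called lower and 5.19% called higher of all genes tested. All 41 had a log2 fold change below 0, beside 49.7% of all genes tested, and the median was -0.47. GINS2 fell by 1.09 (SE 0.23) and GINS1 by 1.00 (SE 0.17) on the log2 scale, and both belong to the helicase that opens the fork. Summed over its genes, the replication list stood at 3794, 3537 and 3588 CPM in replicates 1, 2 and 3 of the knockdown and 5009, 5248 and 5059 CPM in those of the control, a ratio of means of 0.713. The 39 repair and checkpoint genes stood at 2555, 2415 and 2299 CPM in replicates 1, 2 and 3 of the knockdown and 2915, 3014 and 3113 CPM in those of the control, a ratio of 0.804. The 4 end-joining genes made up 981 ± 72.0 CPM of this with knockdown and 1069 ± 46.2 CPM in control cells (SD, n = 3 each), a ratio of 0.917. Neither the gap between these lists nor the part of the replication shift in the repair genes was tested. The count of 18 was 19 without knockdown library 1 and 10 without control library 3. In these fits 898 and 425 of all genes tested were called lower, against 780 with all 6 libraries.

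**Figure D4:**
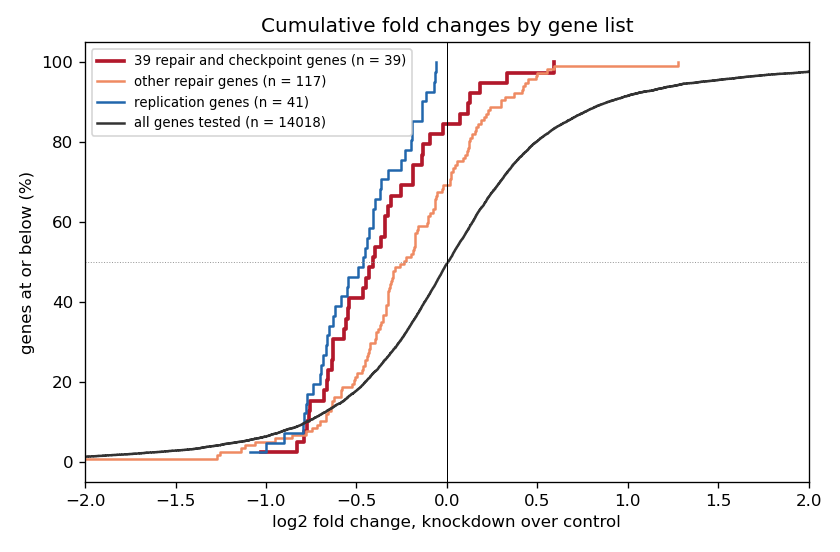
Cumulative share of genes (y axis, percent) at or below each log2 fold change (x axis, knockdown over control) for the 39 repair and checkpoint genes, the 117 other repair genes, the 41 replication genes and all 14018 genes tested. The x axis stops at 2 either way. The curves cross 50% at -0.41, -0.24, -0.47 and 0.0055.

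Coding sequences of the 39 genes were longer and somewhat richer in codons that start with A, the codons read by tRNAs with t6A, than those of other tested genes. In the longest annotated coding sequence of each gene, the median share of such codons was 30.6% over the 39, ranging from 16.0% in FANCF to 36.2% in RAD50, against 27.3% over 11116 tested genes with a coding sequence. The share was 34.1% in BLM, 32.9% in MRE11, 32.7% in BRIP1, 31.6% in PARP1, 30.4% in FANCI and 29.6% in FANCD2. Genes with high shares that were not called included NBN at 35.7% and BRCA2 at 35.4%, and the median was 32.1% over the 6 called and 30.1% over the 33 others. The median length was 846 codons over the 39 and 473 codons over the tested genes. These are properties of the sequence and no relation to the mRNA level was tested.

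**Figure D5:**
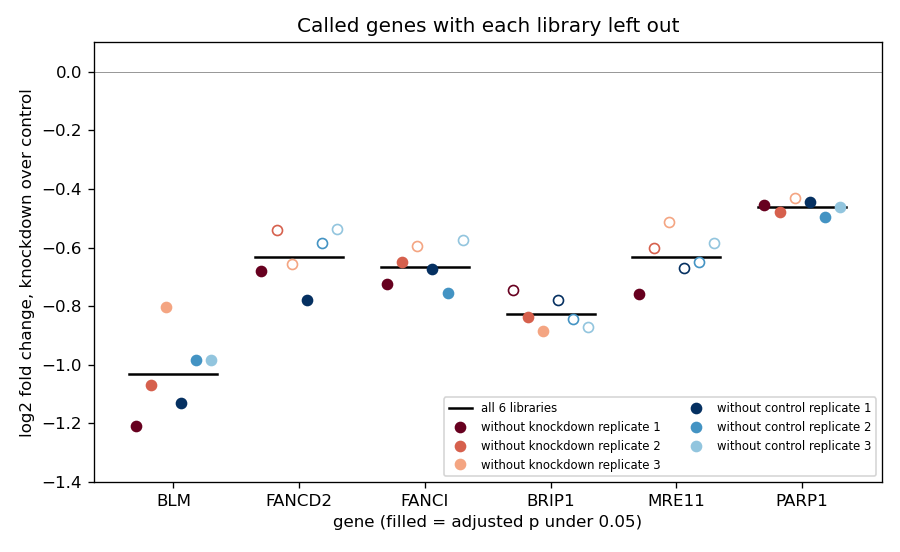
Log2 fold change (y axis) of the 6 called genes with all 6 libraries (black line) and with each library left out in turn (points). Filled points have an edgeR adjusted p under 0.05. BLM is filled in all 6 fits, from -1.21 to -0.80, and PARP1 in 5 of 6, while MRE11 is filled only without knockdown library 1.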

How the data were processed

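Total RNA of 6 HL-60 libraries was sequenced with a stranded mRNA kit and paired reads of 150 bp, per the labels' protocols. The authors deposited a table of raw counts for each library, with Ensembl gene identifiers. The submitters' processing notes list HISAT2 2.1.0, featureCounts 1.6.3 and the builds GRCh38 and GRCm38, with no roles. The annotation release, the strand setting and the treatment of multi-mapping reads are not stated there. Symbols came from a table of current names (57532 of 58302 identifiers) and, where absent there, from GENCODE 29, which also gave positions and exon lengths.

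Differences were tested in edgeR 4.0.16 (R 4.3.3) by quasi-likelihood F tests on a model holding only the group, after TMM scaling and filterByExpr (minimum count 10, minimum total 15), two-sided, with Benjamini-Hochberg adjustment over 14018 genes and a threshold of 0.05. 44284 genes were left out. The SE is the fold change over the square root of F. DESeq2 1.42.0, limma-voom (limma 3.58.1), other scalings and filters, the replicate number as a block and each library left out were alternatives. The steps were also run on simulated data. Those data had less spread between replicates than these libraries, so that run gives no error rate or power for the results here. Every one of the 39 genes is named. Values per library are given for called members, for the member of each role with the highest mean CPM and for members singled out after their values were seen (BARD1 and FANCG). Outside the list, up to 3 called repair genes in each direction and 2 called replication genes with the largest change at a mean CPM of at least 5 are named. Members and lists were chosen with earlier results of these data known. Library pairs of 1 group differed by a chi-square per degree of freedom of 10.9 to 28.0, more than counting noise, so each library was counted once. A planned protein composition was replaced by codon shares from GENCODE 29 transcripts, since no protein table was used here.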

Additional observations from a re-analysis of the deposited data

How the results depend on the processing

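In no fit was a member called higher, and the list's median stayed below 0 throughout. BLM kept its call under all 15 alternatives (log2 fold change -1.21 to -0.80, edgeR, DESeq2 or limma-voom adjusted p 2.16e-06 to 0.0264), PARP1 under 14, FANCI under 13, BRIP1 and FANCD2 under 9 each and MRE11 under 7. The count of members called lower ran from 2 to 7 with 1 library left out, and the median log2 fold change of the 39 from -0.459 to -0.307. At an adjusted p under 0.01, 3 members were called lower. The same replicate number in both groups did not pair the libraries (correlations of deviations from the group means -0.116, -0.0618 and -0.0368), and with the replicate number as a block 3 members were called (BRIP1 at -0.831, FANCD2 at -0.622 and MRE11 at -0.640 were not). Over all genes, 423 to 898 were called lower and 445 to 726 higher with 1 library left out, and 423 and 400 at an adjusted p under 0.01. With library size alone 612 were lower and 859 higher, and with the block 553 and 519, against 780 and 727 with TMM and no block. Other repair genes called lower ran from 5 to 13 and called higher from 0 to 2 with 1 library left out, with 6 lower at an adjusted p under 0.01. Replication genes called lower ran from 10 to 19 with 1 library left out. Signs reversed in members that were not called: with 1 library left out FANCC ran from -0.157 to 0.489, FANCE from -0.00106 to 0.263, PMS2 from -0.369 to 0.0622, RAD50 from -0.317 to 0.305 and XRCC6 from -0.0759 to 0.0306, and XRCC6 was at 0.0508 with library size alone. Of 495 values of the 33 uncalled members under alternatives, 9 passed the threshold. Fits with fewer libraries had fewer residual degrees of freedom. What moved the calls was not tested.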

Other observations

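Replication-dependent histone transcripts, which mostly lack a poly(A) tail, varied between libraries of 1 group. Of a list of 12, 11 were in the table, 2 of them at 0 in every library (H2BC9 and H3C4), and 9 were tested. They summed to 308, 1360 and 847 CPM in knockdown libraries 1, 2 and 3 and to 1020, 599 and 559 CPM in control libraries 1, 2 and 3, and 0 of the 9 were called by edgeR. Knockdown library 1, which stood apart on the second principal component, had the lowest sum. Among other repair genes, chosen after their values were seen, further called falls included ZGRF1, a helicase, at -1.06, ERCC1 at -0.72, MCM8 at -0.67, CLSPN, the mediator of CHEK1 activation, at -0.64, MDC1 at -0.62 and USP1, which removes ubiquitin from FANCD2, at -0.59 (edgeR, adjusted p from 0.00181 to 0.0145).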
